A study of Mus with 8 samples.

Results

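The genes of 3 enzyme families that conjugate drugs, hormones, bile acids and bilirubin in the liver were followed across expression arrays of regenerating mouse liver with and without LKB1. The families are the UDP-glucuronosyltransferases (UGT), the cytosolic sulfotransferases (SULT) and the cytosolic and mitochondrial glutathione S-transferases (GST). Members were taken by gene symbol from the platform annotation (symbols starting with Ugt1 to Ugt3, Sult1 to Sult5, or Gst followed by a, m, p, t, k, o or z and a digit), and no measured value entered the choice. This gave 55 of 23185 named genes, of which 17 were UGT, 19 SULT and 19 GST. In the RefSeq mouse annotation 7 protein-coding genes of the same names had no row of their own: Ugt1a2, Ugt1a5, Ugt1a6a, Ugt1a8, Gsta1, Gsta2 and Gstp2 are not analysed here.

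UGT enzymes transfer glucuronic acid from UDP-glucuronate to a substrate, SULT enzymes transfer a sulfonate group from the donor PAPS, and GST enzymes add glutathione to electrophilic compounds. The conjugates are more soluble than their parents and leave the hepatocyte through export pumps towards bile or blood. In the liver these genes are controlled by nuclear receptors such as CAR and PXR, by the aryl hydrocarbon receptor and by NRF2, and several mouse members differ between the sexes.

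The samples were liver RNAs of 2 groups, labelled Control and LKB1 KO, with 4 arrays in each. All were collected 48 h after partial hepatectomy, an operation that removes part of the liver and sets the remainder growing. The labels give the genotype as control or knockout of LKB1, the kinase encoded by Stk11. Strain, sex, age, the way the gene was deleted and the cells in which it was deleted are not known from the labels. Each array gave 1 log2 value per gene.

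Stk11 was lower in every LKB1 KO array. Its mean was 6.64 ± 0.13 (SD, n = 4) in Control and 4.25 ± 0.41 (SD, n = 4) in LKB1 KO (difference -2.39, SE 0.19, limma adjusted p = 0.000453), and no array went against its label. Array medians lay between 3.75 and 3.96 and correlations between arrays between 0.960 and 0.988. Hepatocyte markers were bright in all arrays, with a mean level over 8 markers of 11.80 to 11.85 in Control and 11.53 to 11.64 in LKB1 KO. All 8 had lower means in LKB1 KO (median difference -0.18) and 5 did not overlap between the groups (5.50% of all genes were lower in this way), while 0 passed the test (3 were lower at an unadjusted limma p under 0.05). LKB1 KO 2 and Control 4 correlated least with their own groups (mean r = 0.974 and 0.976), and Control 4 bears on many of the values below. A background gauge was set at 3.73 log2 units, the 95th percentile of the mean levels of 1354 olfactory and vomeronasal receptor genes, which the liver is not known to use.

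Few members of the 3 families passed the test, and those that did were higher in the LKB1 KO livers. The theta-class glutathione transferase gene Gstt3 and the glucuronosyltransferase gene Ugt1a9 rose, by 2.58-fold and 2.02-fold. None fell over all 8 arrays, although the differences of largest size were negative, in Ugt3a1 (-2.0), Sult2a8 (-1.92) and Ugt2b38 (-1.74). By limma with Benjamini-Hochberg adjustment over all genes, 2 of 55 members (3.64%) passed an adjusted p of 0.05, against 1.98% of all genes, a share near that background. In the direction of a rise the background was 0.487% and in that of a fall 1.49%. At an unadjusted limma p under 0.05, 6 members were higher and 8 lower, 25.5% of the members against 13.4% of all genes (5.80% higher and 7.63% lower). Control and LKB1 KO arrays were fully separate in 6 members (10.9%), 4 higher and 2 lower, against 8.84% of all genes (3.34% higher and 5.50% lower). The median difference over the 55 members was -0.04 log2 units, beside 0.02 over all genes, and 8 members (14.5%) differed by at least 1 log2 unit, against 1.80% of all genes. Brighter genes were past the unadjusted p more often, so that the share was 35.3% among the 34 members whose mean lay above the gauge and 21.1% among all genes above it. The labels give 8 liver samples and do not say how many animals they came from, so the p-values gauge the spread between samples, which may in part be technical.

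**Figure D1:**
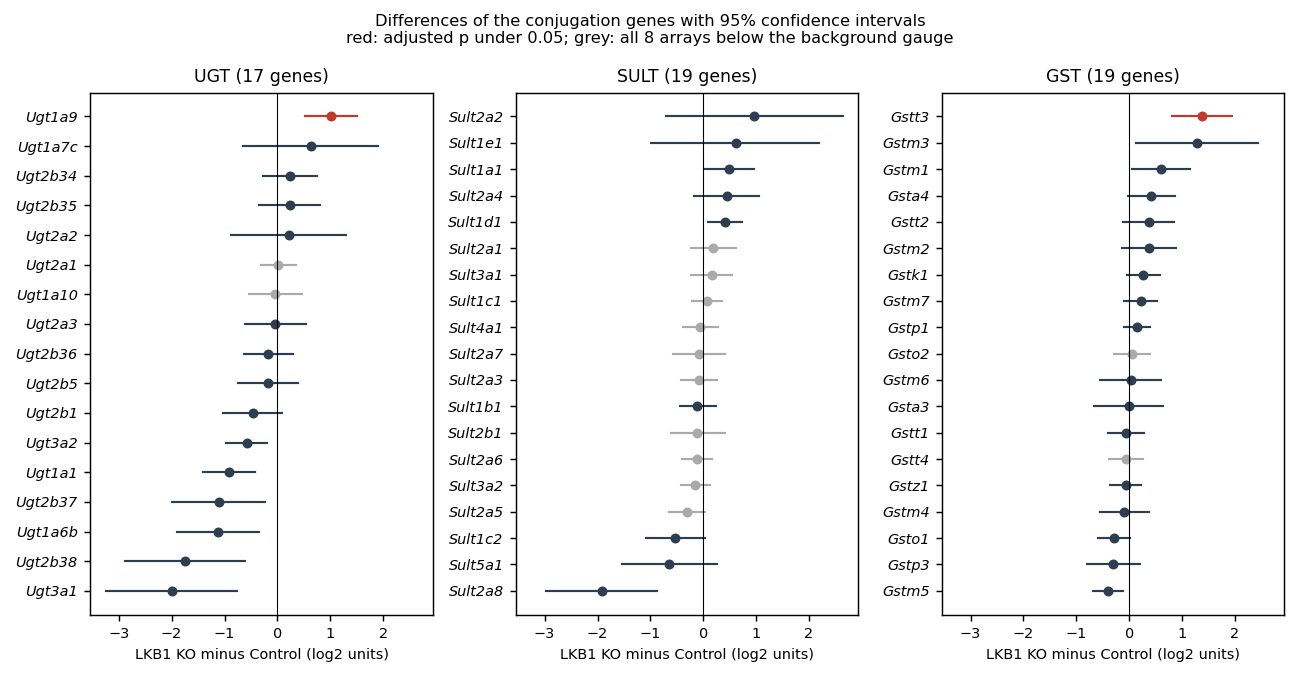
LKB1 KO minus Control in log2 units (x axis) for each member, with 95% confidence intervals from the limma fit (4 arrays per group), in a panel per family. Ugt1a9 and Gstt3 (red) are the members past an adjusted p of 0.05; the 14 grey members lay below the background gauge in all 8 arrays, and the intervals of Ugt3a1, Ugt2b38 and Sult2a8 lie below 0 but are wide.

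Over all members, the median size of the differences was 0.47 log2 units in the UGT, 0.19 in the SULT and 0.27 in the GST family. Means did not lie above the gauge in 6 of 17 UGT, 13 of 19 SULT and 2 of 19 GST genes. These medians therefore do not rank the families by their expressed genes. The signed UGT median was -0.17 log2 units. The mean was lower in LKB1 KO in 11 of 17 UGT members and higher in 6. Of the 17, 5 differed by at least 1 log2 unit, 4 of them downwards. Ugt1a9 was the member that passed; 1 member was higher and 6 were lower at an unadjusted p under 0.05. Both members whose 8 arrays all lay below the gauge, Ugt1a10 and Ugt2a1, differed by -0.04 and 0.02.

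The Ugt1a genes are alternative transcripts of 1 locus, in which separate first exons are joined to the same later exons. Here their differences had opposite signs. Ugt1a9, which conjugates phenols, stood at 6.84, 7.42, 7.69 and 7.30 in Control 1 to 4 and at 8.44, 7.79, 8.49 and 8.60 in LKB1 KO 1 to 4. All 4 LKB1 KO arrays lay above all Control arrays, LKB1 KO 2 by the smallest margin. The means were 7.31 ± 0.36 and 8.33 ± 0.37 (SD, n = 4), a rise of 1.02 log2 units (SE 0.22, 95% confidence interval 0.53 to 1.5, limma adjusted p = 0.0434). The call of Ugt1a9 was lost without Control 1 (adjusted p = 0.104), Control 2 (0.0993), Control 4 (0.0812), any of LKB1 KO 1 (0.123), 3 (0.119) and 4 (0.130), and with each array centred on its median (0.0832), while the difference stayed between 0.86 and 1.2.

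Ugt1a1, the enzyme that conjugates bilirubin, had values of 7.39, 7.34, 7.30 and 6.51 in Control and 6.15, 5.86, 6.21 and 6.64 in LKB1 KO. Control 1 to 3 lay close together above every LKB1 KO array, and Control 4 lay among the LKB1 KO arrays. The difference was -0.92 (SE 0.22, 95% confidence interval -1.41 to -0.42, limma adjusted p = 0.0693). Without Control 4 it was -1.13 (adjusted p = 0.0141). With any other single array left out Ugt1a1 did not pass (adjusted p up to 0.191). Control 4 was singled out from these same values, so the p-value without it is no support for a fall.

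Ugt1a6b, of the branch that handles planar phenols, stood at 7.01, 7.46, 6.99 and 7.25 in Control and at 5.25, 5.37, 6.78 and 6.83 in LKB1 KO. The groups did not overlap, but the LKB1 KO arrays fell into a low pair, 1 and 2, and a pair just under Control, 3 and 4. The difference was -1.12 (SE 0.35, 95% confidence interval -1.90 to -0.34, limma adjusted p = 0.169). Ugt1a7c ranged from 1.67 to 5.28 with 1 array of each group above the gauge and a difference of 0.63 (adjusted p = 0.708). Since the later exons are common to the locus and the probes behind each row are not known, the rows may share signal, and the sizes for single Ugt1a genes are uncertain. A test of the difference between Ugt1a genes was not made.

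The Ugt2 genes, which conjugate steroids, bile acids and drugs, form a cluster of neighbouring genes in RefSeq, and none of 10 passed (2 were lower at an unadjusted limma p under 0.05). Ugt2b38 had the smallest p. Its Control arrays stood at 4.87, 4.82, 2.18 and 4.83 and its LKB1 KO arrays at 2.39, 2.27, 2.62 and 2.45. Transcript signal above the gauge was thus present in Control 1, 2 and 4 and in none of the LKB1 KO arrays, with Control 3 just below the LKB1 KO arrays. The difference was -1.74 (SE 0.51, adjusted p = 0.139). Without Control 3 it was -2.41 (adjusted p = 8.76e-05). With any other single array left out Ugt2b38 did not pass (adjusted p up to 0.316). Control 3 was singled out from these same values, so the p-value without it is no support for a fall. As the lower values lie below the gauge, the size is uncertain. Ugt2b37 stood at 5.36, 4.86, 4.56 and 6.24 in Control and 4.05, 4.89, 4.43 and 3.21 in LKB1 KO, where Control 4 was the highest array and LKB1 KO 4 the lowest (difference -1.11, SE 0.40, adjusted p = 0.234).

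The other 6 Ugt2 genes above the gauge, Ugt2a3, Ugt2b1, Ugt2b5, Ugt2b34, Ugt2b35 and Ugt2b36, had differences from -0.47 to 0.23 (adjusted p from 0.478 to 0.972). In all 6 of them Control 4 was the lowest of the 8 arrays, by 0.68 to 1.05 log2 units under the next Control array. Ugt2b1 shows the pattern, with Control values of 10.50, 10.54, 10.56 and 9.45 and LKB1 KO values of 9.58, 10.21, 9.69 and 9.69. Its difference was -0.47 (SE 0.25, adjusted p = 0.478), and -0.74 without Control 4 (adjusted p = 0.0612). These genes are close relatives whose probes can pick up each other's transcripts, so the 6 are not separate observations.

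Both Ugt3 genes, whose enzymes use sugars other than glucuronic acid, had lower means in LKB1 KO. Ugt3a1 stood at 4.54, 5.08, 5.72 and 2.68 in Control and at 1.65, 2.63, 3.25 and 2.50 in LKB1 KO. Control 1 to 3 lay above the gauge, while Control 4 and all LKB1 KO arrays lay below it. The difference was -2.0 (SE 0.56, adjusted p = 0.115), and without Control 4 it was -2.61 (SE 0.37, adjusted p = 0.00774). With any other single array left out Ugt3a1 did not pass (adjusted p up to 0.273). Ugt3a2 stood at 9.93, 9.63, 9.78 and 9.12 in Control and at 9.26, 8.87, 8.99 and 9.01 in LKB1 KO. Here too Control 4 lay inside the LKB1 KO range. The difference was -0.58 (SE 0.18, limma adjusted p = 0.160), and -0.75 without Control 4 (adjusted p = 0.0327). Ugt3a2 too did not pass with any other single array left out (adjusted p up to 0.33). Control 4 was singled out from these same values, so the p-values without it are no support for a fall of these genes.

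**Figure D2:**
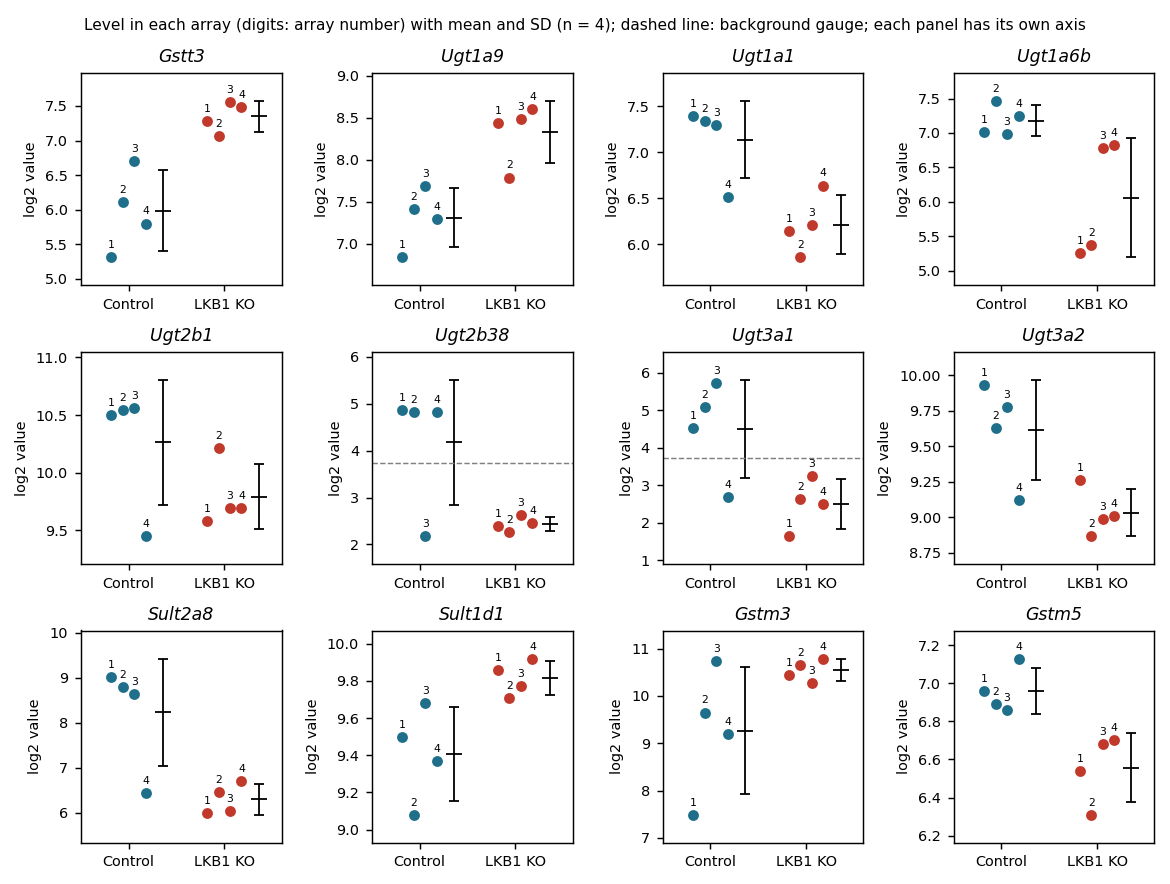
Level of 12 members in each array (y axis, log2 units, with its own range in each panel), Control in blue and LKB1 KO in red with the array number above each point; bars give the mean and SD of 4 arrays, and the dashed line is the background gauge of 3.73. Gstt3 and Ugt1a9 separate with LKB1 KO above; in Ugt1a1, Ugt3a1, Ugt3a2 and Sult2a8 Control 4 lies within the LKB1 KO range, and in Ugt2b38 Control 3 lies just under it.

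None of the 19 SULT genes passed (2 were higher and 1 lower at an unadjusted limma p under 0.05). In 10 of them all 8 arrays lay below the gauge, between 1.22 and 3.24 log2 units, with differences from -0.31 to 0.19. The silent members include Sult2a1 and Sult3a1, which are known to be far more active in female than in male mouse liver. The family median was -0.09 over 19 members and 0.15 over the 6 whose mean lay above the gauge, so it has no settled sign.

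Sult2a8, which sulfonates bile acids, was the Sult2 gene that lay above the gauge in all arrays, and had the lowest p of the family. Its values were 9.02, 8.80, 8.64 and 6.45 in Control and 6.0, 6.47, 6.04 and 6.71 in LKB1 KO. Control 1 to 3 lay far above each LKB1 KO array, and Control 4 lay among the LKB1 KO arrays. The difference was -1.92 (SE 0.48, 95% confidence interval -2.98 to -0.87, limma adjusted p = 0.0755). Without Control 4 it was -2.51 (SE 0.20, 5.71-fold lower, limma adjusted p = 0.000857). Sult2a8 passed in 1 of the 8 fits with a single array left out (adjusted p up to 0.2). As Control 4 was singled out from these same values, the p-value without it is no support for a fall. The remaining 8 Sult2 genes had means below the gauge; Sult2a2 rose above it in LKB1 KO 3 (6.03, against at most 2.52 in the other 7 arrays) and Sult2a4 in LKB1 KO 2 (3.93).

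Among the Sult1 genes, Sult1a1, Sult1c1, Sult1d1 and Sult1e1 had higher means in LKB1 KO and Sult1b1 and Sult1c2 lower ones. Sult1c1 lay below the gauge in all arrays. Sult1d1, which acts on catecholamines, stood at 9.50, 9.08, 9.68 and 9.37 in Control and at 9.86, 9.71, 9.77 and 9.92 in LKB1 KO. The groups did not overlap, by a narrow margin (difference 0.41, SE 0.15, 95% confidence interval 0.09 to 0.73, limma adjusted p = 0.232). Sult1a1, the main phenol sulfotransferase, ranged from 9.88 to 10.96 in Control and from 10.83 to 10.99 in LKB1 KO (difference 0.48, SE 0.21, adjusted p = 0.359). The estrogen sulfotransferase gene Sult1e1 varied most among the Controls, at 4.39, 3.60, 5.42 and 7.62, with Control 4 the highest of all arrays. In LKB1 KO it stood at 5.57, 5.18, 5.84 and 6.87, so its difference of 0.61 has a 95% confidence interval from -0.98 to 2.19. Sult1b1, which acts on thyroid hormones, differed by -0.11 (95% confidence interval -0.45 to 0.24) and Sult1c2 by -0.53 (adjusted p = 0.416), with 1 Control array of Sult1c2 above the gauge. Sult5a1 had Control values of 8.04, 7.79, 6.69 and 5.82 against 6.21 to 6.70 in LKB1 KO (difference -0.64, SE 0.41, adjusted p = 0.565). In the Sult3 and Sult4 genes the smallest p values belonged to Sult3a2 (-0.16, adjusted p = 0.658) and Sult4a1 (-0.06, adjusted p = 0.909), all of whose arrays lay below the gauge.

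The GST family held the larger of the 2 rises, that of Gstt3. Its median was 0.06 log2 units over 19 members and 0.15 over the 17 above the gauge, the mean was higher in LKB1 KO in 11 members and lower in 8, and 0 members differed by 1 log2 unit or more downwards. Gsto2 and Gstt4 lay below the gauge in all arrays.

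Gstt3 stood at 5.31, 6.11, 6.71 and 5.80 in Control and at 7.28, 7.07, 7.56 and 7.48 in LKB1 KO. All LKB1 KO arrays lay above all Control arrays, and the LKB1 KO arrays lay closer together. The means were 5.98 ± 0.59 and 7.35 ± 0.22 (SD, n = 4), a rise of 1.37 log2 units (SE 0.26, 95% confidence interval 0.80 to 1.94, limma adjusted p = 0.0238). The call of Gstt3 was lost without Control 2 (adjusted p = 0.0648) or 4 (0.0529) and without LKB1 KO 1 (0.0666), 3 (0.0761) or 4 (0.0793), with the difference between 1.14 and 1.61. The 3 theta-class genes next to it in RefSeq did not pass: Gstt1, which acts on small halogenated compounds, differed by -0.06 (95% confidence interval -0.41 to 0.28), Gstt2 by 0.37 (-0.11 to 0.85) and Gstt4 by -0.07.

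None of the 7 mu-class genes, a cluster of neighbours that detoxify electrophiles, passed (2 were higher and 1 lower at an unadjusted limma p under 0.05). Gstm3 had the largest difference of the class, with Control values of 7.49, 9.65, 10.73 and 9.19 and LKB1 KO values of 10.45, 10.66, 10.27 and 10.79. The LKB1 KO arrays lay close together (SD 0.23), while the Controls were spread (SD 1.35) and Control 3 lay inside the LKB1 KO range (difference 1.28, SE 0.52, adjusted p = 0.315). Gstm5 was the class member whose groups did not overlap, in the other direction, at 6.96, 6.89, 6.86 and 7.13 in Control and 6.54, 6.31, 6.68 and 6.70 in LKB1 KO (difference -0.40, SE 0.13, adjusted p = 0.190). Gstm1 differed by 0.60 (SE 0.25, adjusted p = 0.318), Gstm2 by 0.37, Gstm7 by 0.22, Gstm6 by 0.03 and Gstm4 by -0.09.

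In the remaining classes the differences were small. Gsta4, which conjugates the lipid peroxidation product hydroxynonenal, differed by 0.42 (SE 0.20, adjusted p = 0.398) and the alpha-class gene Gsta3 by -0.01, with Control 4 at 8.72 and the other 7 arrays between 9.67 and 10.25. The kappa-class gene Gstk1 of mitochondria and peroxisomes did not overlap between the groups, at 9.54 to 10.08 in Control and 10.10 to 10.19 in LKB1 KO (difference 0.27, 95% confidence interval -0.04 to 0.58, adjusted p = 0.457). Gstp1, the pi-class enzyme, differed by 0.15 (-0.10 to 0.40) and Gstp3 by -0.30 (adjusted p = 0.632). The omega-class gene Gsto1 differed by -0.29 (adjusted p = 0.415), and Gstz1, which also acts in tyrosine breakdown as maleylacetoacetate isomerase, by -0.07 (-0.37 to 0.23).

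The Control arrays varied more than the LKB1 KO arrays in these genes. Among the 34 members above the gauge, the SD was larger in Control in 30 (88.2%), with a median SD of 0.44 log2 units in Control and 0.22 in LKB1 KO. Over the 11947 genes above the gauge the SD was larger in Control in 50.0%, with medians of 0.22 and 0.23. With Control 1 to 3 alone it was larger in 19 of the 34 members (55.9%), against 42.0% of those genes. Control 4 was the lowest Control array in 21 of the 34 (61.8%), against 28.1% of the genes above the gauge. In 10 of the 55 members (18.2%) Control 1 to 3 all lay above the LKB1 KO arrays and Control 4 did not, against 2.60% of all genes: Ugt1a1, Ugt2b1, Ugt2b36, Ugt3a1, Ugt3a2, Sult1c2, Sult2a8, Gsta3, Gsto1 and Gstz1. In 5 members (Gsta4, Gstm1, Gstm3, Gstp1 and Sult1a1) the other Controls lay below all LKB1 KO arrays and Control 3 did not, as in 445 of 23185 genes. Members of a gene cluster share sequence and cannot be counted as independent.

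Per array, the UGT members above the gauge had median deviations from their means of 0.39, 0.32, 0.33 and -0.56 in Control 1 to 4 and of -0.28, 0.01, -0.25 and 0.01 in LKB1 KO 1 to 4. Control 4 thus stood below every LKB1 KO array for this family. In the GST family the deviations were -0.12, 0.06, 0.12 and -0.35 in Control and 0.03, -0.09, 0.10 and 0.19 in LKB1 KO. Without Control 4 the UGT median difference went from -0.17 to -0.39. In that fit 4 members fell by limma (Sult2a8, Ugt3a1, Ugt1a1 and Ugt3a2) and 0 rose, where 2.12% of all genes passed, 1.65% lower and 0.470% higher. Since the array left out was chosen from these same values, the 4 calls are no support for a fall. Control 4 did not lie outside the other Controls in its median of named genes (3.83, against 3.75 to 3.86) or in hepatocyte markers (median deviation 0.10, against 0.09 to 0.14). Its neutrophil markers (0.85, against -0.12 to 0.32), stellate and fibroblast markers (0.48, against 0.06 to 0.16) and cholangiocyte markers (0.33, against -0.18 to -0.06) stood higher than in Control 1 to 3. Not all markers of these lists went this way. Control 4 was the highest Control in S100a8, S100a9 and Retnlg but the lowest in Mpo. It was the highest in Des, Dcn, Col1a1 and Col3a1 but the lowest in Reln. Among cholangiocyte markers it was the lowest in Cldn7 and the highest in the others. Its endothelial (0.30), macrophage (0.24), lymphocyte (-0.09) and red cell (-0.02) medians lay within the range of Control 1 to 3. The part of these cells in the low values of Control 4 was not tested.

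**Figure D3:**
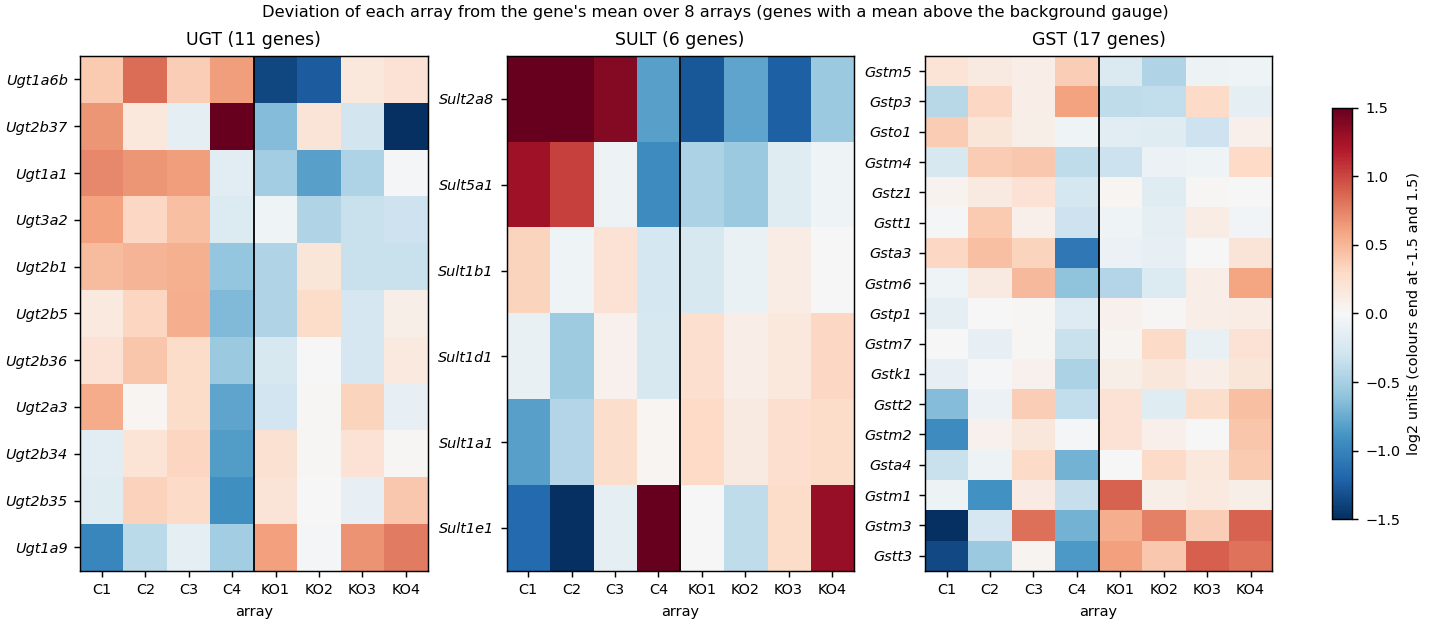
Deviation of each array (columns: C1 to C4 Control, KO1 to KO4 LKB1 KO) from the gene's mean over 8 arrays, in log2 units, for the 34 members with a mean above the background gauge, ordered within each family from the most negative to the most positive difference. Control 4 is blue in most UGT rows and in Gsta3, with exceptions in Ugt1a6b and Ugt2b37, and the LKB1 KO columns are paler than the Control columns.

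Of 15 measured genes of transcription factors that control these families, 5 fell and 1 rose. These calls made up 40% of the list, against 1.98% of all genes and 3.76% of those above the gauge. At an unadjusted limma p under 0.05 the share was 73.3%, against 13.4% of all genes. The xenobiotic receptor gene Nr1i3, which encodes CAR, stood at 8.08, 7.90, 7.91 and 7.94 in Control and 6.95, 6.68, 6.90 and 7.11 in LKB1 KO (difference -1.05, SE 0.13, limma adjusted p = 0.00324). Nr1h4, the gene of the bile acid receptor FXR, fell by 1.26 (SE 0.17, adjusted p = 0.00473), and Ahr, the aryl hydrocarbon receptor gene, fell by 1.19 (SE 0.17, adjusted p = 0.00731). Control 4 lay with the other Controls in each of them, and these 3 calls held with any single array left out. Ppara (-1.24) and Rxra (-0.69) also fell, and Cux2, a repressor more active in female liver, rose by 0.82 (adjusted p = 0.0188). The Control arrays of Cux2 lay between 3.53 and 3.96, with 2 of 4 above the gauge. The call of Rxra ended without LKB1 KO 1 or 4 (0.0563 at most) and that of Cux2 without Control 1 or LKB1 KO 3 (0.0605 at most). The list median was -0.50, against 0.02 over all genes. The PXR gene Nr1i2 (0.45) and the NRF2 gene Nfe2l2 (0.70) had higher means that did not pass.

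Calls made up 6.67% of cofactor genes, 14.3% of other conjugating enzymes, 14.3% of genes that break down conjugates and 25% of transporters. The share was 1.98% of all genes and 3.76% of those above the gauge. At an unadjusted limma p under 0.05 the shares of the lists were 53.3%, 50%, 42.9% and 50%, against 13.4% of all genes. The lists are short and were chosen with earlier results of these data known. Of 15 cofactor genes, the sulfate transporter gene Slc26a1 fell (-0.73, SE 0.14, adjusted p = 0.0225; lost without Control 1, 2 or 3 or LKB1 KO 1, 3 or 4, up to 0.0715), and the PAPS synthase gene Papss2 stood at 0.80 (adjusted p = 0.0616), with a list median of 0.06. Of 14 other conjugating enzymes, the arylamine acetyltransferase gene Nat2 (-0.76, adjusted p = 0.0187; lost without Control 1 or 2 or LKB1 KO 1, up to 0.0642) and the bile acid conjugating gene Baat (-0.63, adjusted p = 0.0251; lost without Control 1 or 2 or LKB1 KO 1, 3 or 4, up to 0.0874) fell, and the list median was 0.10. Of 7 genes that break down conjugates, the aminopeptidase gene Anpep fell (-0.87, adjusted p = 0.0195; lost without Control 1 or 2 or LKB1 KO 1, up to 0.0660). Of 12 transporters, the uptake genes Slco1b2 (-1.08, adjusted p = 0.00663) and Slco1a1 (-1.18, adjusted p = 0.0102) fell, also with any single array left out. The export pump gene Abcb1a rose by 1.24 (adjusted p = 0.0383; lost without Control 1, 2 or 4 or LKB1 KO 1, 2 or 4, up to 0.113), and the conjugate exporters Abcc1 to Abcc6 and Abcg2 did not pass.

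**Figure D4:**
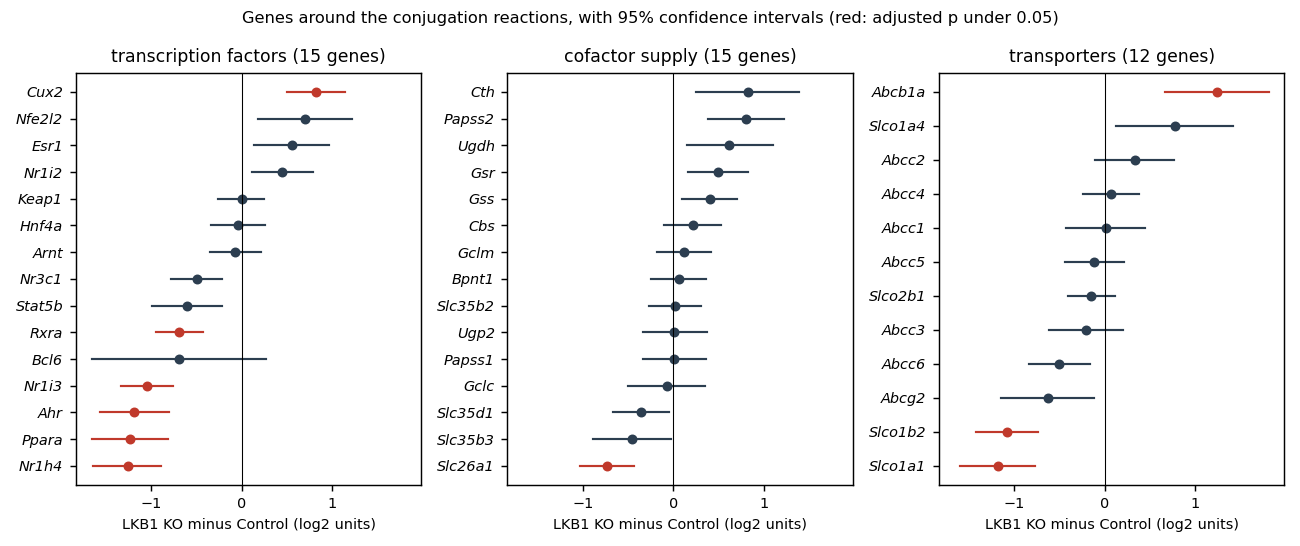
LKB1 KO minus Control in log2 units (x axis) with 95% confidence intervals for 15 transcription factor genes, 15 cofactor genes and 12 transporter genes; red marks an adjusted p under 0.05. Nr1i3, Ahr, Ppara, Nr1h4 and Rxra lie below 0, as do Slc26a1, Slco1b2 and Slco1a1, while Cux2 and Abcb1a lie above it.

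Markers of other liver cells differed between the groups as well. Calls made up 50% of endothelial, 12.5% of macrophage and 25% of red cell markers, against 1.98% of all genes and 3.76% of those above the gauge. Of 8 endothelial markers 4 fell, with mean levels of 6.76 to 7.09 in Control and 6.35 to 6.63 in LKB1 KO. Of these calls, Clec4g held with any single array left out, Gpr182 was lost without Control 2 or LKB1 KO 1 or 3 (0.0634 at the highest adjusted p), and Kdr and Fcgr2b were lost in 7 of 8 such fits, all but that without Control 4 (up to 0.130 and 0.108). The endothelial markers that did not pass were Stab2 (-0.66, limma adjusted p = 0.0509), Lyve1 (-0.15), Cdh5 (-0.10) and Pecam1 (-0.08), so the list did not fall evenly. The mean levels of 8 macrophage markers were 6.35 to 7.32 in Control and 6.06 to 6.48 in LKB1 KO. Among them 1 fell, Csf1r, and its call was lost in all of these fits but that without Control 2 (up to 0.110). None of 8 stellate and fibroblast, 6 cholangiocyte, 7 lymphocyte and 6 neutrophil markers passed (at an unadjusted limma p under 0.05, 4, 0, 0 and 3 of them were lower and 0, 0, 1 and 1 higher), and 1 of 4 red cell markers fell, Alas2, whose call was lost in all of these fits but that without Control 4 (up to 0.141). All arrays lay below the gauge in 3 of the cholangiocyte and 4 of the lymphocyte markers. In whole tissue, fewer cells of a type and less RNA per cell cannot be told apart, and the part of these cells in the differences above was not tested.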

How the data were processed

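Total RNA of 8 liver samples was amplified to cDNA, labelled with biotin and hybridised, 1 array per sample, per the labels' protocols. The deposited table holds log2 expression values that the authors had already normalized and summarised to 1 value per gene and array; the submitters' processing notes name RMA and Partek. The labels name no array design or genome build. RMA compresses differences of dim genes.

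Of 25206 rows, 23185 had 1 gene symbol, 0 several and 2021 none. All 8 columns matched a sample. A linear model with the group as its term was fitted to all named genes with limma 3.58.1 in R 4.3.3 (lmFit, eBayes; tested on simulated data), without a filter, two-sided, with Benjamini-Hochberg adjustment over 23185 genes and a threshold of 0.05. Differences are LKB1 KO minus Control, with moderated SE and 95% intervals. The titles number the arrays 1 to 4 in both groups; equal numbers were not shown to pair samples.

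Named are members past the threshold, otherwise the smallest p of each subfamily, up to 3 called genes per surrounding list, and members singled out after their values were seen (among them Ugt1a1, Ugt1a6b, Ugt2b1, Ugt2b37, Ugt3a2, Sult1a1, Sult1e1, Gstm1, Gstm3 and Gsta3). Members, lists and alternatives were chosen with earlier results of these data known. Alternatives were each array left out, both least typical arrays left out, a replicate block, quantile normalization, median centring, a filter on dim genes, other variance priors, array weights, all rows, stricter thresholds and members above the gauge.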

Additional observations from a re-analysis of the deposited data

Results flagged for a closer look

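In each group of 4 arrays, an array was singled out where its gap to the nearest other array exceeded Dixon's critical share of the group's range, which chance reaches in about 1 of 20 groups. Over 116 groups, 12 were singled out. Control 4 was the low array in 5 of them: Gsta3 (8.72, others 10.11 to 10.25), Sult2a8 (6.45, others 8.64 to 9.02), Ugt1a1 (6.51, others 7.30 to 7.39), Ugt2b1 (9.45, others 10.50 to 10.56) and the UGT family median deviation (-0.56, others 0.32 to 0.39). Control 3 was low in Ugt2b38 (2.18, others 4.82 to 4.87). LKB1 KO 1 was high in Gstm1 (6.22, others 5.42 to 5.48), LKB1 KO 4 was high in Ugt1a7c (5.28, others 2.96 to 3.31) and LKB1 KO 2 was low in Gstz1 (9.56, others 9.74 to 9.77). In genes at or near background, Control 1 was high in Sult2a1 (2.47), LKB1 KO 2 in Sult2a4 (3.93) and LKB1 KO 1 in Sult2a6 (1.71).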

How the results depend on the processing

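Of 917 member values under alternative settings, 890 stayed called or stayed uncalled, 16 lost a call, 11 gained one and 0 reversed a call. The lost calls are those of Gstt3 and Ugt1a9; the gained ones belong to Sult2a8, Ugt1a1, Ugt3a1, Ugt3a2, Ugt2b1 and Ugt2b38. In 20 members, none of them called in any setting, the sign turned or the rounded difference reached 0 at least once. Gstz1 and Sult1c1 are among them through a rounded 0 only. Rising members numbered 2, and 1 with median centring, 1 with the replicate block (Ugt1a9 at an adjusted p of 0.0785), 1 without LKB1 KO 2 and Control 4, 0 without moderation and 0 at an adjusted p under 0.01; falling members numbered 0, and 2 with array weights and 4 without LKB1 KO 2 and Control 4. With single arrays left out, 0 to 2 rose and 0 to 4 fell. The UGT median was -0.42 without LKB1 KO 2 and Control 4 and -0.39 to -0.02 with single arrays left out. The SULT median was 0.15 without the dimmest genes, 0.15 over members above the gauge, -0.11 without LKB1 KO 2 and Control 4, and -0.08 to 0.03 with single arrays left out. Over all genes 113 were higher and 345 lower (24.7% higher); quantile normalization gave 198 higher (36.8%), array weights 254 higher (35.2%), the replicate block 186 lower and no moderation 13 higher and 84 lower, and single arrays left out 42 to 144 higher and 164 to 382 lower. Of 110 genes on the surrounding lists 4 rose, and 7 with quantile normalization, 7 without the dimmest genes, 7 with the trended and robust prior, 8 with array weights, 2 without LKB1 KO 2 and Control 4 and 0 without moderation (2 to 9 with single arrays left out), while 24 fell, and 7 without moderation. Arrays of equal number deviated together by correlations of -0.05, -0.17, 0.24 and -0.03, so the replicate block is given here only. The number of arrays, and for 21 members a mean below the background gauge, limit what can be seen.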

Other observations

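Genes known to differ between male and female mouse liver also differed between the groups. Calls made up 72.7% of the male-biased and 30% of the female-biased list, against 1.98% of all genes and 3.76% of those above the gauge. Of 11 male-biased genes 8 fell, among them the transporter gene Slco1a1 named above, and 0 rose, with a median of -1.42 log2 units. The smallest p values belonged to the complement gene C6 (-1.77, limma adjusted p = 0.000947), the fatty acid hydroxylase gene Cyp4a12a (-3.01, adjusted p = 0.00155) and Selenbp2 (-2.71, adjusted p = 0.00287), and the largest difference to the fatty acid elongase gene Elovl3 (-3.69, adjusted p = 0.0110). Of 10 female-biased genes 3 rose and 0 fell, with a median of 0.68. Those that rose were the steroid hydroxylase gene Cyp17a1 (2.83, limma adjusted p = 0.00542), Prom1 (2.21, adjusted p = 0.00967) and Cux2. Prom1 and Cux2 each had 2 of 4 Control arrays above the gauge, and Cyp17a1 had all 4. In 3 of the 10 genes, A1bg, Cyp3a16 and Hao2, all 8 arrays lay below the gauge. Means were higher in LKB1 KO in 7 of the 10 and lower in 3. Cyp2b9, above the gauge in all 8 arrays, differed by -0.08. The male-biased list had median deviations of 1.06, 1.11, 0.52 and 0.24 in Control 1 to 4 and of -0.95 to -0.55 in LKB1 KO. In these medians Control 4 was the Control nearest to LKB1 KO. In C6, Cyp4a12a, Selenbp2 and Elovl3 the nearest was Control 3. The sex of the animals is not given in the sources used here.

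Among 12 phase I genes, which oxidise or hydrolyse compounds before conjugation, 3 fell and 0 rose, with a median of -0.04. They were Cyp2e1 (-1.09, adjusted p = 0.00278), Cyp1a2 (-1.38, adjusted p = 0.00324) and Cyp3a13 (-1.02, adjusted p = 0.0194; lost without Control 1 or LKB1 KO 3, up to 0.0604). The quinone reductase gene Nqo1 stood at 4.40, 5.18, 5.60 and 4.11 in Control and at 6.13, 5.57, 6.24 and 6.87 in LKB1 KO (1.38, adjusted p = 0.0755), which overlap through Control 3. Of 10 pericentral genes 3 fell and 0 rose, with a median of -0.31. They were Cyp2e1, Cyp1a2 and the glutamine synthetase gene Glul (-0.71, limma adjusted p = 0.0239). The call of Glul was lost without Control 1, 2 or 3 or LKB1 KO 1, 3 or 4 (adjusted p up to 0.0836). Means were higher in LKB1 KO in 3 of the 10, among them Oat, whose groups did not overlap (1.08, adjusted p = 0.0535). Of 8 periportal genes 2 fell and 0 rose, with a median of -0.09 and 3 higher means. They were Pigr (-1.45, limma adjusted p = 0.00131) and Cyp2f2 (-1.44, adjusted p = 0.0238). The call of Cyp2f2 was lost without Control 1 or 2 or LKB1 KO 1 or 2 (adjusted p up to 0.0810). Calls made up 25% of phase I, 30% of pericentral and 25% of periportal genes, against 1.98% of all genes and 3.76% of those above the gauge.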
